A study of Mus musculus with 24 samples.

Results

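Genes of the NF-kappaB response, 10 in number, were followed in mouse epidermis that lacks its clock: 5 feedback genes that NF-kappaB induces and that act on it or on its messages (Nfkbiz, Nfkbia, Arid5a, Zc3h12a and Tnfaip3) and 5 inflammatory cytokine genes (Cxcl1, Cxcl2, Il1a, Il1b and Il6). They were taken by gene symbol, and 10 of 10 were among the 17721 genes of the comparison. The tested animals, called EpiKO, were 24 male C57BL/6 mice, 8 weeks old, in which a Cre recombinase under the keratin 14 promoter removed Bmal1, the activator of the circadian clock, sampled every 4 h at 6 times, 4 animals a time, beginning when lights came on (zeitgeber time, ZT, 0) in a cycle of 12 h light and 12 h dark. The keratin 14 promoter is active in basal keratinocytes, so immune cells in the same preparation are not its target. Their rhythms had been compared by the authors with those of wild-type (WT) epidermis, for which the labels' protocols give the same sex, age, times and number of animals. The WT libraries were not analysed here and nothing says that both sets were made together, so genotype and the making of each set of libraries cannot be told apart.

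NF-kappaB is a family of transcription factor dimers held in the cytoplasm by IkappaB proteins until signals such as interleukin 1, tumour necrosis factor or interleukin 17 switch on the IkappaB kinases. Nfkbia encodes IkappaB alpha, which is degraded and then resynthesised to end the response, and Tnfaip3 encodes A20, a ubiquitin-editing enzyme that dampens signalling upstream. Nfkbiz encodes IkappaB zeta, a nuclear cofactor for a later wave of target genes in keratinocytes. Zc3h12a encodes Regnase-1, a nuclease that destroys cytokine messages, Il6 among them, and Arid5a encodes an RNA-binding protein that protects the Il6 message from it.

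No value per library was available, so depth is unknown and no SD, SE or n can be attached to any value below. Each gene instead has a weight, between 0 and 1, for each of 5 models of its daily rhythm (none, EpiKO only, WT only, the same in both, different in both), which add up to 1. A gene was assigned to a model that held at least 0.5. The genes were chosen by these weights and by the curves that go with them, so what follows is a description and no test was made on it. The cell type label was borne out by keratin genes such as Krt14, at a mean level of 16.54 (log2) in both genotypes (the authors' deposited table), against a median of 7.61 over all genes.

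The promoters of the feedback genes and the chemokines are shown first, because NF-kappaB acts there. RefSeq gave a promoter (250 bases before to 50 after the start, GRCm38.p6) for 9 of the 10 genes, the exception being Nfkbiz, and a second one for Tnfaip3 (chromosome 10, 19011914 to 19012213), which held none of the motifs searched. A gene is counted below where any of its promoters has a match. The kappaB consensus, searched on both strands, was found in 5 of these 9, Tnfaip3, Nfkbia, Cxcl1, Cxcl2 and Il6, and in 8.46% of all 32851 promoters of that length. The AP-1 motif TGANTCA was found in 3 of 9 (Tnfaip3, Il1a and Il6) and in 7.81% of all, and TGACGTCA, the cyclic AMP response element, in none of 9 and in 1.79% of all. The E-box CACGTG, the letters that BMAL1 and CLOCK bind, was found in 1 of 9 (Tnfaip3) and in 7.15% of all. Below, capitals mark kappaB matches and, in Tnfaip3, also the E-box, which lies between both kappaB matches. The start of the E-box was 33 bases before the RefSeq start site of Tnfaip3, and the nearer kappaB match began 12 bases before that site. The GENCODE span of the gene (19000910 to 19015657) begins further upstream. By that annotation the E-box and both kappaB matches lie inside the gene. Arid5a is shown as the gene with a rhythm assigned and none of these 4 motifs.
Tnfaip3 promoter, chr10:19015361-19015660, minus strand: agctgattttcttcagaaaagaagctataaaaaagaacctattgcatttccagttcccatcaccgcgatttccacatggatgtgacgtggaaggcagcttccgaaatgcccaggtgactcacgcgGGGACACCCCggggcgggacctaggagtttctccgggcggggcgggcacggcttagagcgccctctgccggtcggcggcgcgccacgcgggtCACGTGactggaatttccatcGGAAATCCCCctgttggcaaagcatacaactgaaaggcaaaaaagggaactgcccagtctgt
Arid5a promoter, chr1:36307483-36307782, plus strand: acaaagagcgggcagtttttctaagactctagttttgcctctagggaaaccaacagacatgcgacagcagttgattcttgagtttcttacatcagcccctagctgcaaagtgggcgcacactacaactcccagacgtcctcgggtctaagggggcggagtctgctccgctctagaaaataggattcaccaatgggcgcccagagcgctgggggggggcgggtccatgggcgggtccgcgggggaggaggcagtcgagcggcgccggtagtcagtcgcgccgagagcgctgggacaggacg
Nfkbia kappaB window, chr12:55492657-55492686, minus strand: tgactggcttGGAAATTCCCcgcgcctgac
Cxcl1 kappaB window, chr5:90891164-90891193, plus strand: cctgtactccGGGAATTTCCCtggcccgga
Cxcl2 kappaB window, chr5:90903792-90903821, plus strand: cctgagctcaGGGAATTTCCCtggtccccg
Il6 kappaB window, chr5:30013060-30013089, plus strand: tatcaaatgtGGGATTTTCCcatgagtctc
Cxcl1 and Cxcl2 carried the same 11 capital letters, in which matches on both strands overlap. A match is a run of letters and shows no binding.

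Of the 10 genes, 2 were assigned a rhythm in EpiKO only, against 4.31% of all genes, and both were feedback genes. No rhythm was assigned to 6, against 56.7% of all genes, and these were the 5 cytokines and Zc3h12a. None was assigned a rhythm in WT only (8.41% of all genes), the same rhythm in both (16.7%) or different rhythms (2.65%). Tnfaip3 and Nfkbia reached 0.5 for no model, as did 11.3% of all genes. Feedback genes were abundant, with mean levels from 9.86 to 12.85 (log2), whereas the cytokines lay between 1.67 and 4.81. Among genes above the 0.75 quantile of mean level, 4.58% of genes had a rhythm in EpiKO only and 38.5% none. Among genes under the median level, where the cytokines lie, 3.78% had a rhythm in EpiKO only and 72.8% none.

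**Figure D1:**
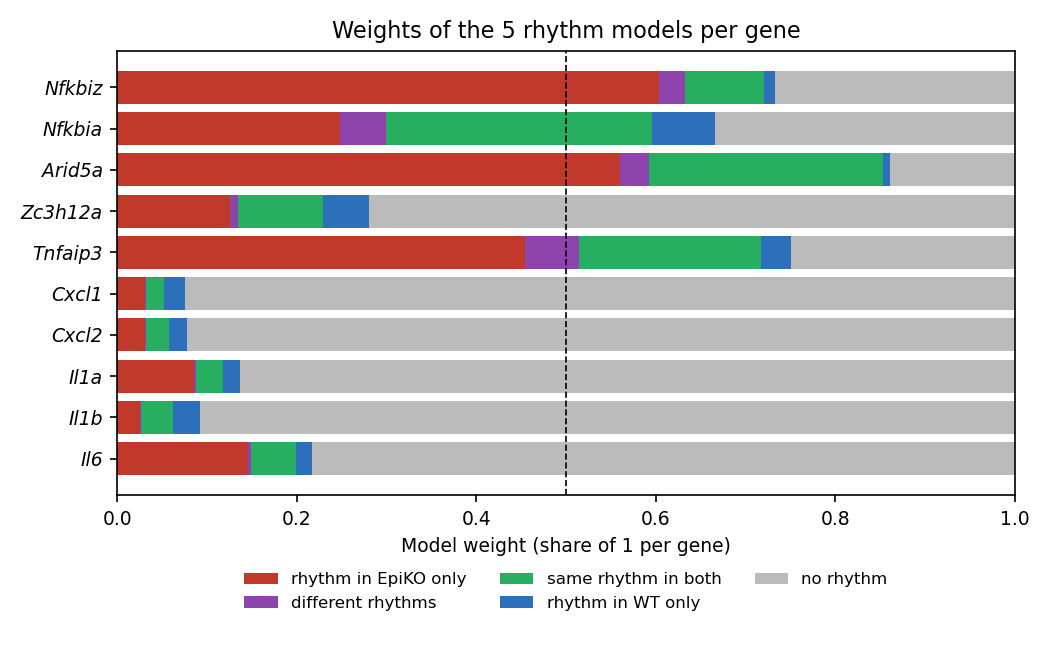
Weights of the 5 rhythm models (horizontal axis, share of 1) for each gene (rows), from the authors' deposited table; the dashed line marks the limit of 0.5. Nfkbiz and Arid5a pass it with a rhythm in EpiKO only (0.604 and 0.560), and the 5 cytokines have most of their weight on no rhythm (0.783 to 0.925).

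Nfkbiz (ENSMUSG00000035356; chromosome 16, 55811375 to 55838899, mm10) had a weight of 0.604 on a rhythm in EpiKO only, 0.267 on no rhythm, 0.087 on the same rhythm in both, 0.029 on different rhythms and 0.013 on a rhythm in WT only (the authors' deposited table). The EpiKO-only model thus had 2.26 times the weight of no rhythm and 6.92 times that of a shared rhythm. The fitted EpiKO level was 12.41 at ZT0, 12.84 at ZT4, 12.53 at ZT8, 11.78 at ZT12, 11.35 at ZT16 and 11.66 at ZT20 (log2), against a flat 12.80 in WT. The EpiKO curve was near the WT level at ZT4, above it by 0.04, and below it at ZT16 (a difference of -1.45). The model gave WT no rhythm, and the fitted EpiKO mean was lower (12.10 against 12.80 in WT). The difference in means and the height of the cosine thus fixed where the fitted lines part. Peak over trough was 2.83-fold, with the peak at ZT4.36 (the authors' deposited table).

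Arid5a (ENSMUSG00000037447; chromosome 1, 36307733 to 36324029) had 0.560 on a rhythm in EpiKO only, 0.260 on the same rhythm in both, 0.139 on none, 0.032 on different rhythms and 0.008 on WT only (the authors' deposited table). Its weight for EpiKO only was 4.02 times that for no rhythm and 2.15 times that for a shared rhythm, so here the shared rhythm was the closer rival. The fitted EpiKO level was 10.18 at ZT0, 10.79 at ZT4, 10.47 at ZT8, 9.54 at ZT12, 8.93 at ZT16 and 9.24 at ZT20 (log2), against a flat 9.86 in WT. The fit gave both genotypes 1 mean and WT no rhythm, so the EpiKO curve had to cross the WT line. It lay above that line from ZT0 to ZT8 and below it from ZT12 to ZT20. Peak over trough was 3.72-fold and the peak was at ZT4.69 (the authors' deposited table).

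Tnfaip3 (ENSMUSG00000019850; chromosome 10, 19000910 to 19015657) lay just outside the limit, with 0.454 on a rhythm in EpiKO only, 0.25 on none, 0.202 on the same rhythm in both, 0.060 on different rhythms and 0.033 on WT only (the authors' deposited table). Its deposited curve had the largest height of the 3, at 4.44-fold from peak to trough, with the peak at ZT4.95 (the authors' deposited table). The fitted EpiKO level was 12.43 at ZT0, 13.18 at ZT4, 12.89 at ZT8, 11.84 at ZT12, 11.09 at ZT16 and 11.39 at ZT20 (log2), against a flat 12.14 in WT. It was above the WT line from ZT0 to ZT8 and below it from ZT12 to ZT20. As for Arid5a, a shared mean and a flat WT line fixed such a crossing in advance. The 3 peaks lay within 0.59 h of one another. The 2 genes just inside and just outside the limit, Arid5a at 0.560 and Tnfaip3 at 0.454, thus had near peak times, ZT4.69 and ZT4.95. Every deposited curve is a single daily cosine, so a like shape is given by the fit.

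**Figure D2:**
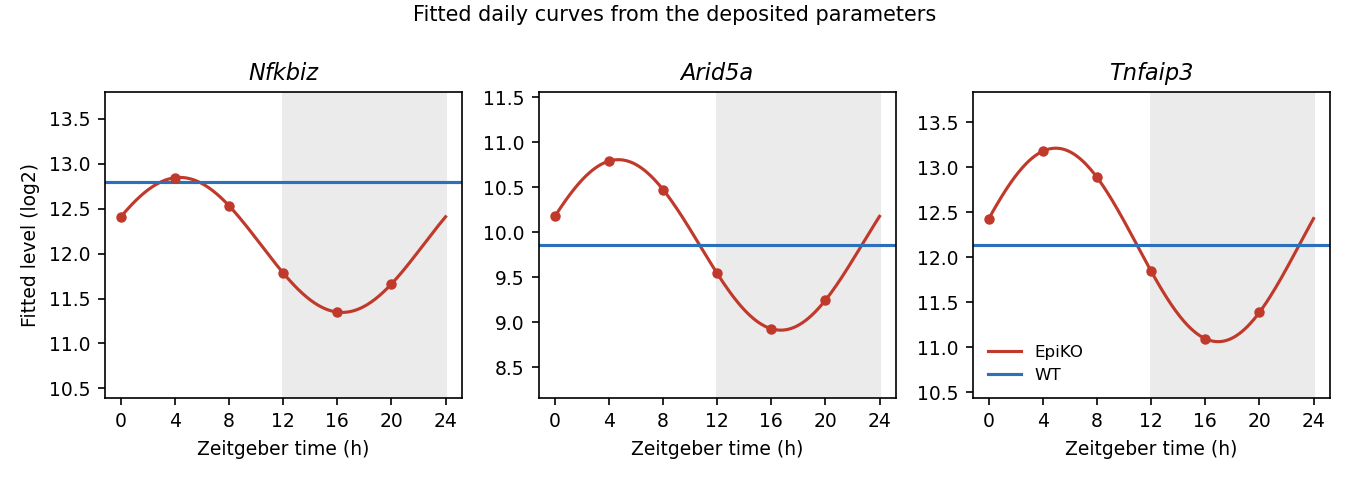
Fitted level (vertical axis, log2) against zeitgeber time (horizontal axis, h) for Nfkbiz, Arid5a and Tnfaip3, drawn from the authors' deposited parameters; red curves are EpiKO with points at the 6 sampled times, blue lines are WT, and grey marks the dark phase. EpiKO curves peak between ZT4.36 and ZT4.95, and the points are fitted values, not measurements of animals.

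Nfkbia (ENSMUSG00000021025; chromosome 12, 55489410 to 55492647) was split between models, with 0.334 on no rhythm, 0.296 on the same rhythm in both, 0.248 on EpiKO only, 0.070 on WT only and 0.052 on different rhythms (the authors' deposited table). The table gives it no curve. Adding up the 3 models that hold a rhythm in EpiKO gave 0.596 for Nfkbia, 0.717 for Tnfaip3, 0.720 for Nfkbiz, 0.853 for Arid5a and 0.229 for Zc3h12a. The 3 models that hold a rhythm in WT added up to 0.418, 0.296, 0.129, 0.301 and 0.155 for the same genes. By these sums 4 of the 10 genes had at least 0.5 on a rhythm in EpiKO, against 29.2% of all genes and 41.6% of genes above the 0.75 quantile of level. None of the 10 reached 0.5 for WT, against 34.5% of all genes and 51.3% of genes above that quantile. For Nfkbia the sums leave a rhythm that both genotypes share, or that EpiKO alone has, unresolved. Zc3h12a (ENSMUSG00000042677; chromosome 4, 125118423 to 125127840) had 0.720 on no rhythm and 0.125 on EpiKO only (the authors' deposited table).

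**Figure D3:**
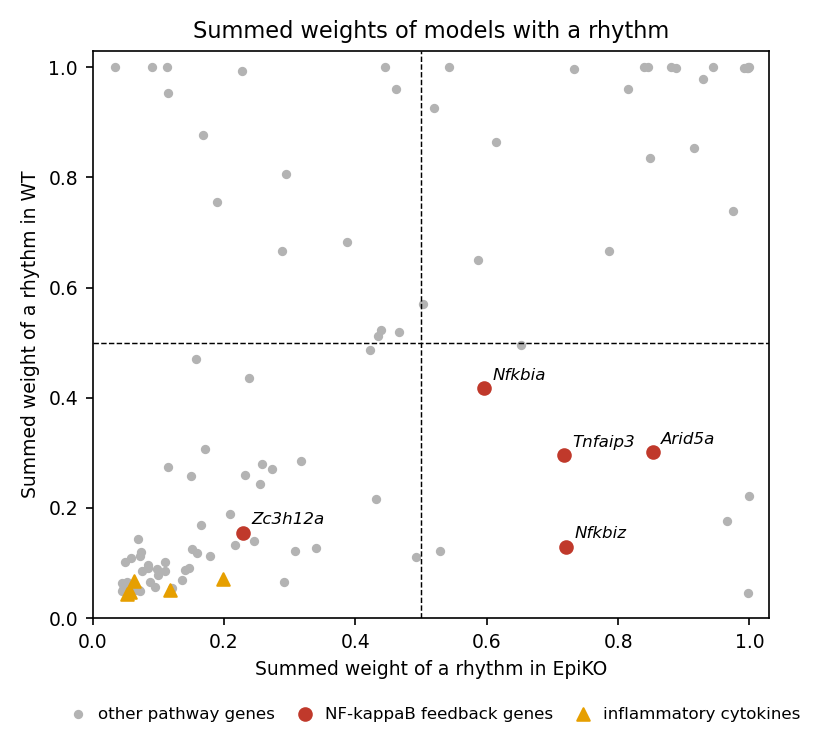
Summed weight of the models with a rhythm in EpiKO (horizontal axis) and in WT (vertical axis) for the 5 feedback genes (red circles), the 5 cytokines (orange triangles) and 93 other genes of the pathway (grey); dashed lines mark 0.5. Nfkbiz, Arid5a, Tnfaip3 and Nfkbia lie right of the line for EpiKO (0.596 to 0.853) and below the one for WT (0.129 to 0.418).

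Large curves with modest weights were common to these genes and to others with the same peak time. Among genes at or above the median level, 566 had EpiKO only as their largest weight, and by height Tnfaip3 ranked 4, Arid5a 5 and Nfkbiz 12 of them. The 429 of these that passed the limit had a median height of 1.25-fold. Of the 566, 25 reached 2-fold or more, the 3 feedback genes included, and 20 of these 25 peaked between ZT3 and ZT7. Of the 541 with smaller curves, 130 peaked in that window. The median weight on EpiKO only was 0.546 for the 25 and 0.628 for the 541, so the larger curves did not carry larger weights. How far single animals set these curves was not tested, since no value per library was available. The fold limit and the window were chosen after the values were seen.

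**Figure D4:**
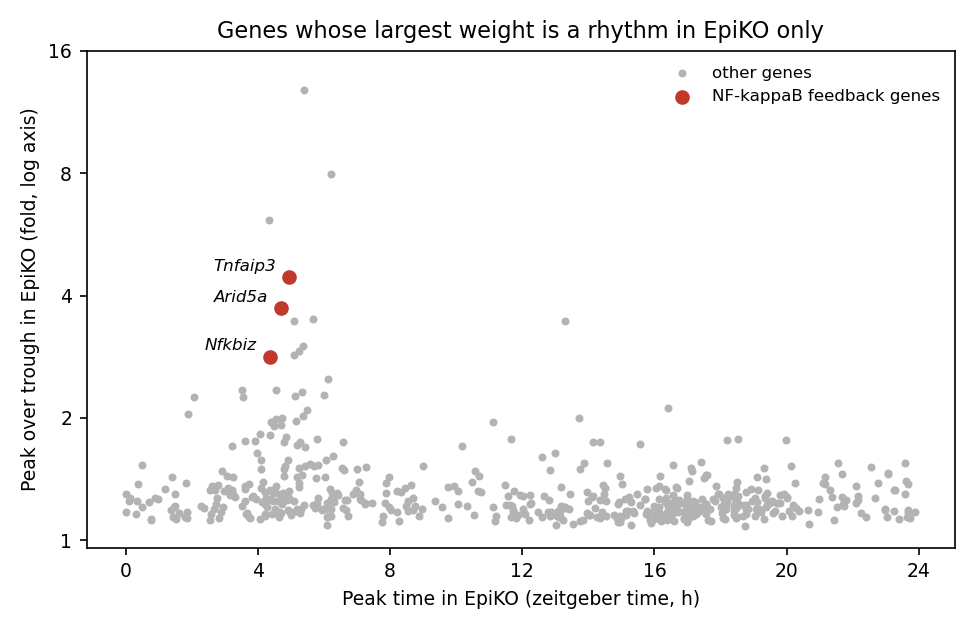
Height of the EpiKO curve (vertical axis, peak over trough, fold, log axis) against its peak time (horizontal axis, h) for the 566 genes at or above the median level whose largest weight was a rhythm in EpiKO only; each point is a gene and red marks Nfkbiz, Arid5a and Tnfaip3. The 3 red points, between 2.83 and 4.44, stand among the few tall curves near ZT4 to ZT6.

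The cytokine genes were flat in both genotypes as far as these weights go. The weight on no rhythm was 0.925 for Cxcl1 and 0.922 for Cxcl2, chemokines that draw neutrophils (the authors' deposited table). It was 0.863 for Il1a, stored in keratinocytes as an alarm signal, 0.908 for Il1b, made by activated immune cells, and 0.783 for Il6 (the authors' deposited table). The largest weight on no rhythm that any gene had was 0.941. Of the cytokines, Il6 had the most weight on EpiKO only, 0.146, and Il1a had 0.086 (the authors' deposited table). Their levels were low, between the percentiles 18.7 (Cxcl2) and 33.7 (Cxcl1) of all genes, and at such levels a weight on no rhythm does not show that a rhythm is absent. Overlapping sequence limits some of them: 5.78% of the 51-base windows of Cxcl2 were shared with Cxcl3, 9.10% of those of Il1a with Gm14023 on the opposite strand, and Il1b overlaps the antisense gene Il1bos. The sources used here do not say whether counting used strand. For the 5 feedback genes, at most 0.457% of windows (Arid5a) were shared.

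Divided by annotated exon length, the order of mean levels (log2 per kb, averaged over both genotypes) was Nfkbia at 12.16, Nfkbiz at 10.12, Tnfaip3 at 9.28, Zc3h12a at 9.18 and Arid5a at 6.21, then Cxcl1 at 3.90, Il1a at 3.09, Il1b at 2.71, Il6 at 1.94 and Cxcl2 at 0.62. Without a spread over animals, it cannot be said which neighbours in this order differ, such as Tnfaip3 and Zc3h12a, or Il1a and Il1b. Arid5a has 6 annotated transcripts with retained introns. With such transcripts left out, a choice made after seeing the data, its exons came to 6079 bases, against 12540 with them, and its level per kb was 7.25; Cxcl1 was then at 4.88, Tnfaip3 at 9.85 and Il1b at 3.18, just above Il1a at 3.09, and the order was otherwise as given.

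Mean levels over the day differed between genotypes in 4 of the 10 genes by a mean-model weight of at least 0.5. Among them 3 feedback genes were lower in EpiKO, against 37.4% of all genes, and 1 cytokine was higher, against 32.7% of all genes. As parts of the 10 genes, neither count exceeds the share of all genes. Nfkbiz had a mean of 12.10 in EpiKO and 12.80 in WT (log2), with a weight of 0.902 on different means (the authors' deposited table). Nfkbia had 12.49 in EpiKO and 13.20 in WT, with a weight of 0.818, and Zc3h12a had 10.32 in EpiKO and 11.09 in WT, with a weight of 0.962 (the authors' deposited table). EpiKO means were thus 0.614-fold, 0.612-fold and 0.588-fold those of WT, a like size in all 3 genes. Their differences lay at percentiles from 19.4 to 20.2 of all genes, so falls of this size were common. Cxcl2 had 2.31 in EpiKO and 1.02 in WT (log2), with a weight of 0.693 (the authors' deposited table), which is 2.45-fold at the lowest level of the 10 genes. Arid5a (weight on equal means 0.809), Tnfaip3 (0.866), Cxcl1 (0.871), Il1a (0.831), Il1b (0.649) and Il6 (0.612) had 1 shared mean (the authors' deposited table). In whole epidermis, fewer cells of a type and less RNA per cell cannot be told apart.

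**Figure D5:**
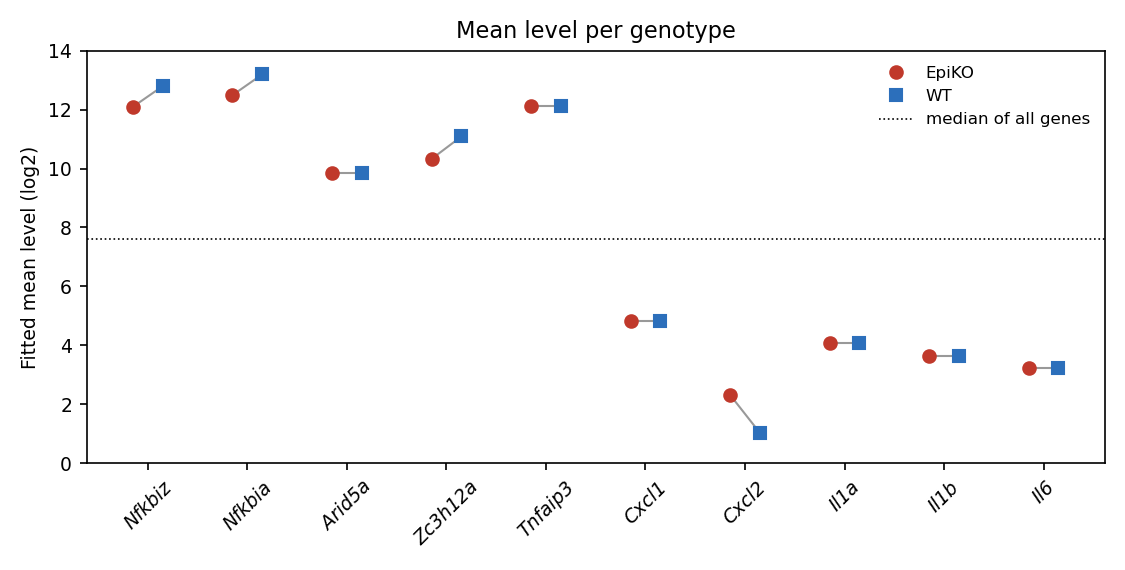
Fitted mean level over the day (vertical axis, log2) of each gene in EpiKO (red circles) and WT (blue squares), from the authors' deposited table; the dotted line is the median of all genes, 7.61. Nfkbiz, Nfkbia and Zc3h12a are lower in EpiKO, Cxcl2 is higher, and the other 6 genes have 1 mean for both.

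Genes that tissue dissociation can induce, and markers of other cell types, were read beside these means, against 37.4% of all genes lower and 32.7% higher in EpiKO. Of 18 immediate early and heat shock genes, 8 (44.4%) were lower in EpiKO, near the share of all genes, none was higher and 10 had a shared mean. The AP-1 gene Junb had 13.94 in EpiKO and 14.88 in WT, and the chaperone gene Hspa1a 9.71 in EpiKO and 13.28 in WT (log2) (the authors' deposited table). The 18 genes were abundant, from 8.55 to 16.05 (Fos), with a median level of 12.90 (log2) against 7.61 over all genes. How far handling of the tissue set the levels of the feedback genes was not tested. As to rhythm, 17 of the 18 were assigned none, Fos with a weight of 0.917 and Egr1 with 0.918 (the authors' deposited table). The other was Nr4a2, an orphan nuclear receptor, with a 6.13-fold curve in EpiKO that peaked at ZT4.35 (the authors' deposited table). Of 6 Langerhans cell markers 5 (83.3%) were higher in EpiKO, against 32.7% of all genes, among them Cd207 at 7.28 in EpiKO and 5.80 in WT, and 3 of 5 T lymphocyte markers (60%) were higher and none lower (the authors' deposited table). Of 6 macrophage and monocyte markers, 3 were higher and 3 lower in EpiKO. All 4 endothelial markers were higher, at a median level of 1.62 (log2) and with weights on different means from 0.691 (Kdr) to 0.874 (Vwf). Of 6 fibroblast markers 3 were higher and none lower: Dcn (weight 0.9999), Lum (0.956) and Col1a2 (0.756). By these counts higher means were not confined to immune cell markers, but the endothelial count rests on low levels. Of 5 melanocyte markers 2 were lower and none higher. Of 5 basal keratinocyte markers 3 were lower and 1 higher, and of 4 differentiated keratinocyte markers 2 were lower and 1 higher. The neutrophil receptors Cxcr2, which binds the products of Cxcl1 and Cxcl2, and Csf3r had 1.32 and -0.04 in EpiKO, against 9.25 and 8.67 in WT (log2), while the neutrophil genes Mpo (-0.99) and Retnlg had low shared means (the authors' deposited table). Large falls were not confined to these receptors. The melanocyte gene Tyr had 3.60 in EpiKO and 8.65 in WT (log2). The chemokine gene Cxcl5 had -2.41 in EpiKO and 4.28 in WT, and Defb4 had -2.41 and 3.25 (the authors' deposited table). Tyr, Cxcl5 and Defb4 were named after their values were seen. The part of these differences in the results on the 10 genes was not tested.

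The rest of the pathway was read from lists by role. Of 93 other measured genes, 3 (3.23%) were assigned a rhythm in EpiKO only, 10 (10.8%) in WT only, 16 (17.2%) the same rhythm in both, 2 (2.15%) different rhythms and 49 (52.7%) none, close to the shares of all genes given above. Of the NF-kappaB subunits Rela, Relb, Rel, Nfkb1 and Nfkb2, Nfkb1 and Nfkb2 were assigned no rhythm, and the other 3 reached 0.5 for no model. Rel had only 0.012 on no rhythm, with summed weights of 0.975 on a rhythm in EpiKO and 0.739 on one in WT. Relb had 0.466 on EpiKO and 0.519 on WT. Of the 5 subunits 2 (40%) had a higher mean in EpiKO, against 32.7% of all genes, and 1 (20%) a lower one, against 37.4%. The higher ones were Rel (10.70 in EpiKO and 9.39 in WT, log2) and Nfkb1 (11.62 and 11.52). The lower one was Rela (10.18 and 10.40). Of the 4 other IkappaB genes, 3 were assigned no rhythm, and Nfkbie reached the limit for no model, with a summed weight of 0.512 on a rhythm in WT. Those 3 had lower means in EpiKO (75% of the 4, against 37.4% of all genes). The differences (log2, EpiKO minus WT) were -0.70 for Bcl3, -0.54 for Nfkbid and -0.11 for Nfkbib. Their weights on different means were 0.998 for Bcl3, 0.607 for Nfkbid and 0.589 for Nfkbib. Nfkbid and Nfkbib thus lay little above the limit of 0.5, and only Bcl3 was well above it. These 3 genes were named after their values were seen.

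Upstream of the kinases, Irak2, a kinase of the interleukin 1 receptor complex, was rhythmic in WT only, 1.35-fold with a peak at ZT7.66, and had means of 8.03 in EpiKO and 9.63 in WT (the authors' deposited table). Traf3ip2, the adaptor of the interleukin 17 receptor, shared a 1.18-fold rhythm with a peak at ZT8.88 in both genotypes, and Ikbkg, the regulatory subunit of the kinase complex, a 1.15-fold one at ZT5.82 (the authors' deposited table). Among A20 partners and deubiquitinases, Otulin was assigned a rhythm in WT only (1.43-fold, ZT22.8). Its weight there was 0.554, with 0.446 on different rhythms, so a rhythm in EpiKO was left unresolved. Tnip1, which binds A20, shared a rhythm in both (1.19-fold, ZT3.74) (the authors' deposited table). Among decay factors of cytokine messages, Rc3h1, which encodes Roquin-1, shared a 1.35-fold rhythm at ZT8.26 and Zfp36l2 a 1.33-fold one at ZT8.44, while Upf1 cycled 1.21-fold in WT only with a peak at ZT14.2 (the authors' deposited table). None of these had the EpiKO-only pattern of Arid5a and Nfkbiz.

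Of 15 receptor genes, 10 (66.7%) had a higher mean in EpiKO, against 32.7% of all genes, and 3 (20%) a lower one, against 37.4% of all genes; no test was made on these counts. Il18r1, a subunit of the interleukin 18 receptor, cycled 1.94-fold in WT only with a peak at ZT0.888, and the decoy receptor gene Il1r2 had 1.34-fold at ZT13.9 in EpiKO and 1.605-fold at ZT9.15 in WT (the authors' deposited table). Tlr3, a sensor of double-stranded RNA, shared a 1.38-fold rhythm at ZT4.20 (the authors' deposited table). Among the 20 other cytokines and antagonists measured, Lif shared a 2.01-fold rhythm at ZT1.25 in both genotypes, Ccl20 cycled 2.82-fold in WT only at ZT21.7, and Il33, a nuclear alarm cytokine, 1.99-fold in WT only at ZT23.6 (the authors' deposited table). Gadd45b was assigned a 2.71-fold rhythm in WT only at ZT10.5, with a weight of 0.591 there and 0.219 on no rhythm. Sod2, the mitochondrial superoxide dismutase, had 1.21-fold at ZT17.2 in EpiKO and 1.5-fold at ZT13.4 in WT (the authors' deposited table). The 3 pathway genes with a rhythm in EpiKO only, named after their values were seen, were Il1f9 (interleukin 36 gamma, 1.63-fold at ZT3.16), Il1rl2 (its receptor, 1.36-fold at ZT9.92) and Bcl2l1 (1.27-fold at ZT22.7) (the authors' deposited table). Il1f9 had a weight of 0.952 on that model (the authors' deposited table), above those of Nfkbiz and Arid5a, with a smaller curve and a peak earlier than theirs.

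The genes with EpiKO curves most like that of Nfkbiz were found by the distance between their cosine and sine coefficients (log2), among 3470 genes at or above the median level with a deposited EpiKO curve. In order they were Pbk (0.139), Map3k8 (0.142), Mir22hg (0.143), Klf6 (0.177) and Aurkb (0.182), with heights from 2.34-fold to 2.92-fold and peaks from ZT4.55 to ZT5.24. The mitotic kinase genes Pbk and Aurkb were also rhythmic in WT, with peaks at ZT21.3 and ZT21.8 (the authors' deposited table), unlike Nfkbiz. Arid5a was as close as the gene of rank 9 (0.211) and Tnfaip3 as that of rank 57 (0.354).

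The messages of the 10 genes were also searched for a sequence feature that the choice did not use, AU-rich elements of the 3' untranslated region, where some decay factors bind. The pentamer ATTTA was present in 10 of the 10 principal transcripts and in 64.9% of 16535 genes of the table. It occurred 11 times in the 734 bases of Cxcl2, 6 times in the 427 of Il6, 7 times in the 592 of Cxcl1 and 4 times in the 459 of Il1b, and per kb these 4 lay at percentiles 99.6, 99.6, 99.3 and 98.4 of all genes, whose median was 1.18 per kb. The others had per kb 3.91 (Nfkbia), 3.50 (Zc3h12a), 2.95 (Nfkbiz), 2.75 (Tnfaip3), 2.72 (Il1a) and 0.717 (Arid5a), the last under that median. The nonamer TTATTTATT was present in Cxcl1, Cxcl2, Tnfaip3 and Nfkbia, 4 of 10, and in 7.18% of all. A window of 29 bases that holds it is shown for each of the 4, with every ATTTA in capitals (GENCODE M21, mm10).
Cxcl1 AU-rich site, chr5:90892605-90892633, plus strand: ggtcctATTTATTTAtgtATTTATTTAtt
Cxcl2 AU-rich site, chr5:90905328-90905356, plus strand: ATTTATTTAtctatgtATTTATTTATTTA
Tnfaip3 AU-rich site, chr10:19001754-19001782, minus strand: ttATTTAttatgaacttccaagttATTTA
Nfkbia AU-rich site, chr12:55489618-55489646, minus strand: cctaatgaaaggaccacgttttATTTAtt
The chemokine windows hold 4 and 5 pentamers, the feedback gene windows 2 and 1. The genes with a rhythm assigned in EpiKO only, Nfkbiz and Arid5a, do not hold the nonamer, and these counts say nothing of how stable a message was.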

How the data were processed

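The series holds 24 libraries of polyadenylated RNA from dispase-separated epidermis, read as single reads of 51 bases with a stranded kit, per the labels' protocols. Per the submitters' processing notes, the build was mm10 and the tools were featureCounts 1.6.0, HISAT2 2.2.1, Trimmomatic 0.36, SAMtools 1.3.1 and edgeR, without order or settings. The authors deposited 1 table of their dryR comparison of EpiKO with WT. It gives each model's weight, a score between 0 and 1 (a BIC weight, per the file headers), deposited means that are log2 values, and a score of relative amplitude that was not used. The side that is not WT was read as EpiKO. How libraries were scaled is not given in the sources.

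Computed here were assignments at a weight of at least 0.5, sums of weights, folds as 2 to the deposited peak-to-trough height, fitted levels, motif and 51-base window counts (GENCODE M21, RefSeq GRCm38.p6). Symbols matched 17720 of 17721 identifiers. Tests across libraries could not be made. The members and lists were chosen with earlier results of these data known. Named are all members, up to 3 rhythmic genes per pathway list by amplitude, up to 3 per stress and marker list, and the 5 genes nearest to the member with the most weight on EpiKO only. Not every gene the rule takes is named, and others are named as chosen after their values were seen, among them Junb, Hspa1a, Fos, Egr1, Krt14 and the markers. The assignment was tested on simulated data. Alternatives were other weight limits, a minimum amplitude or difference, centring and a level filter. Python 3.11.15, NumPy 2.4.6 and pandas 2.3.3 were used.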

Additional observations from a re-analysis of the deposited data

How the results depend on the processing

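No paired analysis was possible because the table holds no values per library, and leaving out replicates was not run for the same reason. At a minimum weight of 0.8, 0 of the 10 genes had a rhythm assigned in EpiKO only, against 2 at 0.5, and of all genes 1.41% did. With a mean-model weight of 0.8, and also without genes under the 0.25 quantile of mean level, 0 genes had a higher mean in EpiKO, against 1 (Cxcl2); the cause is that Cxcl2 has a weight of 0.693 and a level under that quantile. Summing the weights of all models with a rhythm in EpiKO, chosen after seeing the data, gave 4 genes in place of 2. The other alternatives left each count within 1.5 times its value: no minimum weight and a limit of 0.4 gave 3 genes with a rhythm in EpiKO only, with Tnfaip3 as the added one, and the genes with a lower mean numbered 3 under each alternative tried. Depth per library is unknown, and the low levels of the cytokine genes limit what their weights can show.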
